A study of Homo sapiens with 8 samples.

Results

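RNA sequencing compared A2780 cells given olaparib together with palbociclib with A2780 cells given palbociclib alone, which addresses what olaparib adds to a culture that already receives palbociclib. A2780 is an established human ovarian carcinoma cell line. The groups used here were the combination of olaparib and palbociclib (labelled Ola/PD), palbociclib alone (labelled PD), olaparib alone and the solvent DMSO alone, each for 24 h and with 2 libraries per group that the labels call biological repeats. No label says that the repeats came from separate cultures, so p-values measure the spread between these libraries, which may be partly technical. The labels used here give no dose, and no knockout, transgene or other treatment is named. All genes with a mean of at least 1 FPKM (fragments per kilobase of exon scaled for sequencing depth, the deposited unit) over the 8 libraries were compared, which left 12443 of the 31721 genes in the table.

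Olaparib inhibits PARP1 and PARP2, the poly(ADP-ribose) polymerases that sense single-strand DNA breaks, and it holds them on DNA, where they obstruct replication. Palbociclib inhibits CDK4 and CDK6, the cyclin D kinases that phosphorylate the retinoblastoma protein and so release E2F factors and entry into S phase. DNA damage stabilises p53, a transcription factor that induces genes of arrest, repair and death, among them CDKN1A, which encodes the CDK inhibitor p21.

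The labels call the cells epithelial in morphology, but none of the 11 epithelial and ovarian carcinoma markers found in the table, EPCAM, CDH1, KRT8, KRT18 and PAX8 among them, reached a mean of 1 FPKM. The mesenchymal intermediate filament gene VIM stood at 339.7 and 339.2 FPKM in the combination libraries and 349.7 and 326.0 FPKM in the palbociclib libraries. Of the leukocyte and endothelial markers found, such as CD14, LYZ, PECAM1 and VWF, none reached a mean of 1 FPKM, while the fibroblast-associated genes LUM, DCN and PDGFRB did (means of 44.0, 6.68 and 2.27 FPKM over the 8 libraries) and differed between combination and palbociclib by -0.07 ± 0.06, -0.10 ± 0.07 and -0.03 ± 0.08 on the log2 scale. Whole reads recovered from the FPKM values summed to between 20566089 and 34056976 per library. In such bulk libraries fewer cells of a type and less RNA per cell cannot be told apart.

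The typical difference between combination and palbociclib was about as large as that between single libraries of a group. The median absolute difference between combination and palbociclib means was 0.071 on the log2(FPKM + 1) scale, beside 0.079 between the 2 combination libraries and 0.059 between the 2 palbociclib libraries. The within-group values compare single libraries, whereas the value between groups compares means of 2. The measure between means was 0.106 for olaparib against DMSO. Fold changes below are log2 differences of FPKM + 1, which understate the change of weakly expressed genes, given ± SE from limma, a linear model fitted to all 8 libraries with a spread shared across genes. An adjusted p (Benjamini-Hochberg over the 12443 genes) under 0.05 was the threshold. By this test 1 gene passed as higher in the combination (0.00804% of those tested) and 2 passed as lower (0.0161%), 3 in all (0.0241%), and none of the 10175 protein-coding genes passed. At an unadjusted p under 0.05 there were 603 higher genes (4.85%) and 1464 lower ones (11.8%). A 95% interval of a fold change had a median width of 0.15 to either side.

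The lower gene with the most recovered reads was AC092720.1, a long intergenic noncoding RNA at chr16:87492555-87515635 on the plus strand (GRCh38, GENCODE 29). It stood at 1.89 and 1.98 FPKM in the combination libraries, 11.7 and 9.94 FPKM in the palbociclib libraries, 6.37 and 9.43 FPKM in the olaparib libraries and 7.73 and 8.89 FPKM in the DMSO libraries. Both combination libraries lay far below all 6 others, whose ranges overlapped between olaparib and DMSO. The reads behind these values were 56 and 70 with the combination and 349 and 430 with palbociclib. The transcript fell by 2.01 ± 0.16 against palbociclib (adjusted p = 0.0183, limma), and olaparib alone gave -0.08. Without 1 library the difference lay between -2.12 and -1.90, and the adjusted p exceeded the threshold without either DMSO (0.0655 and 0.0666), palbociclib (0.212 and 0.11) or combination library (0.134 and 0.148), with fewer samples in each such fit. The difference between these olaparib effects was -1.92 ± 0.22, with an adjusted p of 0.144 by limma and 9.91e-05 by voom, limma's weighting of the recovered reads. Wherever voom is named alone, it used size factors computed from these reads, a setting added after the data were seen. By the GENCODE 29 bounds the protein-coding gene ZCCHC14 starts 510 bases away on the opposite strand, and it differed by -0.01 ± 0.04. The promoter window of ZCCHC14 in RefSeq, chr16:87492975-87493274 on the minus strand, lies within the span given above for AC092720.1. Further along the chromosome FBXO31 differed by -0.12 ± 0.05 and the autophagy gene MAP1LC3B by 0.06 ± 0.04. No source used here says whether the counting took strand into account, so reads of overlapping transcripts at this locus cannot be told apart.

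The other genes past the threshold had few recovered reads. RNU7-141P, a U7 small nuclear RNA pseudogene of 62 bases at chr20:59852667-59852728 on the minus strand, had 4.42 and 4.34 FPKM in the combination libraries and 0.735 and 1.01 FPKM in the palbociclib libraries. These values came from 6 and 7 reads with the combination and from 1 and 2 reads with palbociclib. The limma difference was 1.53 ± 0.12 (adjusted p = 0.0183), but voom on the reads gave an adjusted p of 0.0852. ENSG00000274519, an identifier that GENCODE 29 does not hold, had 4.49 and 4.41 FPKM with the combination and 12.7 and 11.8 FPKM with palbociclib. Its recovered reads were at least 6 and 7 against 17 and 23, at the shortest length that gave whole reads. A longer length would give more reads, so the voom result for this gene rests on that choice. ENSG00000274519 fell by 1.28 ± 0.09 (adjusted p = 0.0183, limma), with an adjusted p of 0.0808 by voom. Neither gene passed without any 1 of the palbociclib and combination libraries, where the adjusted p ran from 0.101 to 0.212 by limma, and RNU7-141P missed the threshold without either olaparib library (0.0511 and 0.0516).

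The p53 target genes had the highest median difference of the 28 gene lists with at least 7 tested members. Of 55 listed targets 44 passed the expression filter, and in 36 of these both combination libraries exceeded both palbociclib libraries, a pattern seen in 18.1% of all tested genes. Of the remaining 8, WRAP53 lay lower in both combination libraries, by -0.02 ± 0.04, and 7 overlapped. The opposite pattern held for 29.1% of all tested genes. The median of the 44 was 0.213, beside -0.02 over all tested genes. No target passed the adjusted limma threshold, and 31 of 44 had an unadjusted p under 0.05 as higher genes (4.85% of all genes). Voom with size factors computed from the recovered reads called 21 of the 44 higher, against 92 of all genes (0.739%). The lists were drawn up with earlier results of these data known, so such counts describe a list and do not test it.

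**Figure D1:**
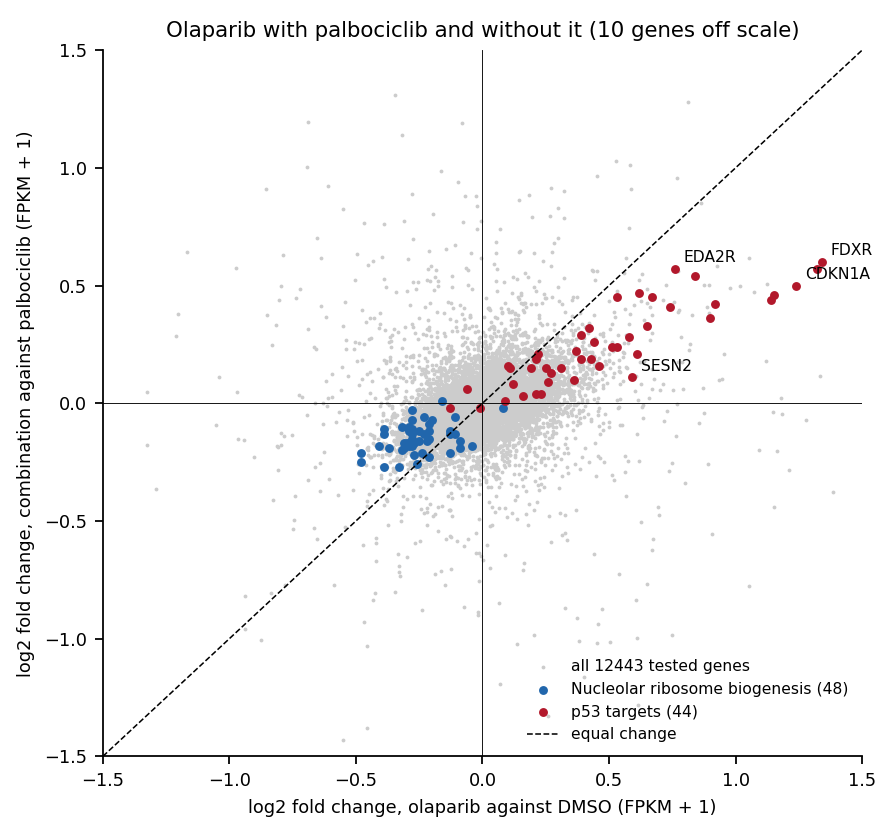
Log2 fold change of FPKM + 1 for combination against palbociclib (vertical axis) and for olaparib against DMSO (horizontal axis), 1 point per tested gene, with the p53 targets in red and the nucleolar ribosome biogenesis genes in blue; 10 genes lie beyond the axes at 1.5. Most p53 targets lie above 0 and below the dashed line of equal change, and most nucleolar genes lie below 0 and above that line.

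Among the p53 targets of cell cycle arrest, CDKN1A had 24.5 and 28.1 FPKM in the combination libraries, 18.7 and 17.8 FPKM in the palbociclib libraries, 30.5 and 31.7 FPKM in the olaparib libraries and 12.4 and 12.7 FPKM in the DMSO libraries. No 2 groups overlapped, and the combination lay between palbociclib and olaparib. The difference from palbociclib was 0.50 ± 0.06, or 1.44-fold in mean FPKM, with an adjusted p of 0.0961 by limma and 5.41e-05 by voom. BTG2, an antiproliferative gene, had 21.8 and 24.2 FPKM with the combination against 16.9 and 16.1 FPKM with palbociclib (0.46 ± 0.06, adjusted p = 0.101 by limma and 0.000181 by voom). PHLDA3, which encodes an inhibitor of AKT, had 13.7 and 16.9 FPKM with the combination against 9.96 and 9.95 FPKM with palbociclib (0.57 ± 0.11). All 6 tested arrest genes lay higher in both combination libraries, the smallest differences being 0.13 ± 0.06 for GADD45A and 0.09 ± 0.05 for TOB1.

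Of 9 tested death and survival targets 8 lay higher in both combination libraries. EDA2R, a receptor of the tumour necrosis factor family, had 7.12 and 6.60 FPKM in the combination libraries against 4.26 and 4.29 FPKM in the palbociclib libraries. Its difference of 0.57 ± 0.06 had an adjusted p of 0.0572 by limma and 0.000144 by voom. BBC3, which encodes the BH3-only protein PUMA, had 12.1 and 14.7 FPKM with the combination against 9.76 and 9.63 FPKM with palbociclib (0.42 ± 0.11, adjusted p = 0.167 by limma). BAX, the pore-forming effector of apoptosis, had 64.4 and 69.0 FPKM with the combination against 56.0 and 56.4 FPKM with palbociclib (0.24 ± 0.05, adjusted p = 0.146 by limma). TNFRSF10C, a decoy receptor for TRAIL, overlapped between the groups at 0.01 ± 0.09. FAS, PMAIP1 and PERP were among the 11 listed targets under the expression filter.

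In the repair and metabolic branches of the p53 list, DDB2, the damage-binding subunit of nucleotide excision repair, had 8.82 and 8.71 FPKM with the combination against 6.40 and 6.31 FPKM with palbociclib. Its unadjusted p was the lowest of the list (0.41 ± 0.04, adjusted p = 0.0572 by limma and 0.000297 by voom). RRM2B, the p53-inducible small subunit of ribonucleotide reductase, differed by 0.32 ± 0.06 and XPC by 0.26 ± 0.05. FDXR, the mitochondrial ferredoxin reductase, had 38.4 and 45.2 FPKM in the combination libraries, 27.4 and 26.8 FPKM in the palbociclib libraries, 49.3 and 57.2 FPKM in the olaparib libraries and 19.7 and 21.2 FPKM in the DMSO libraries. Its difference from palbociclib, 0.60 ± 0.09, was the highest of the 44 (adjusted p = 0.121 by limma and 4.47e-05 by voom). SESN1, a sestrin that restrains mTORC1, differed by 0.33 ± 0.05. SESN2 did so by 0.11 ± 0.05, from palbociclib levels of 55.3 and 54.9 FPKM that were already above the 21.3 and 20.5 FPKM of DMSO.

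Of 7 tested feedback genes and p53 regulators 5 lay higher in both combination libraries and WRAP53 lower. MDM2, the ubiquitin ligase that degrades p53, had 6.38 and 5.75 FPKM with the combination against 5.39 and 4.97 FPKM with palbociclib (0.19 ± 0.06, adjusted p = 0.202 by limma and 0.0473 by voom). RPS27L, a ribosomal protein paralogue that acts on MDM2, had 9.95 and 9.90 FPKM against 7.27 and 6.56 FPKM (0.47 ± 0.06, adjusted p = 0.078 by limma). PURPL, a p53-induced noncoding RNA, is not among these 7 genes and was chosen after its values were seen. It had 16.8 and 16 FPKM against 10.3 and 11.2 FPKM (0.56 ± 0.06, adjusted p = 0.0572 by limma and 5.41e-05 by voom).

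Promoters of RPS27L and FDXR are shown because they are the targets with the lowest p whose RefSeq promoter (250 bases before to 50 after the start, GRCh38.p14) holds a match to the p53 decamer, the repeat unit of p53 response elements. The decamer was searched on both strands, and capitals mark the match. The RPS27L window is chr15:63157428-63157727 and the FDXR window chr17:74872945-74873244, both on the minus strand.
RPS27L: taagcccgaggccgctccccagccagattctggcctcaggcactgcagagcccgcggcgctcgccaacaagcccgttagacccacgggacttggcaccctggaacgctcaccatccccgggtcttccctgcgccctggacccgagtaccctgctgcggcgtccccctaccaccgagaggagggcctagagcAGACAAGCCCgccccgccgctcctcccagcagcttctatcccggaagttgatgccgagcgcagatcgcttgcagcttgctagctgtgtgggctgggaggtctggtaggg
FDXR: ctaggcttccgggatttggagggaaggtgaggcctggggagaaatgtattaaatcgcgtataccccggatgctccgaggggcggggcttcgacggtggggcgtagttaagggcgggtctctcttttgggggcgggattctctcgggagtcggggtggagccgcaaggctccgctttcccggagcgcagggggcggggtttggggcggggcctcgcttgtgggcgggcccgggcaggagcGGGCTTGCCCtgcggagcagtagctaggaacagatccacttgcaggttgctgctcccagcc
The match starts 59 bases before the start site in RPS27L and 11 bases before it in FDXR. Of 37 tested p53 targets with a promoter in the table, 4 (10.8%) held such a match, beside 445 of 8815 tested genes (5.05%). A match is a description of these letters and not a binding site.

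**Figure D2:**
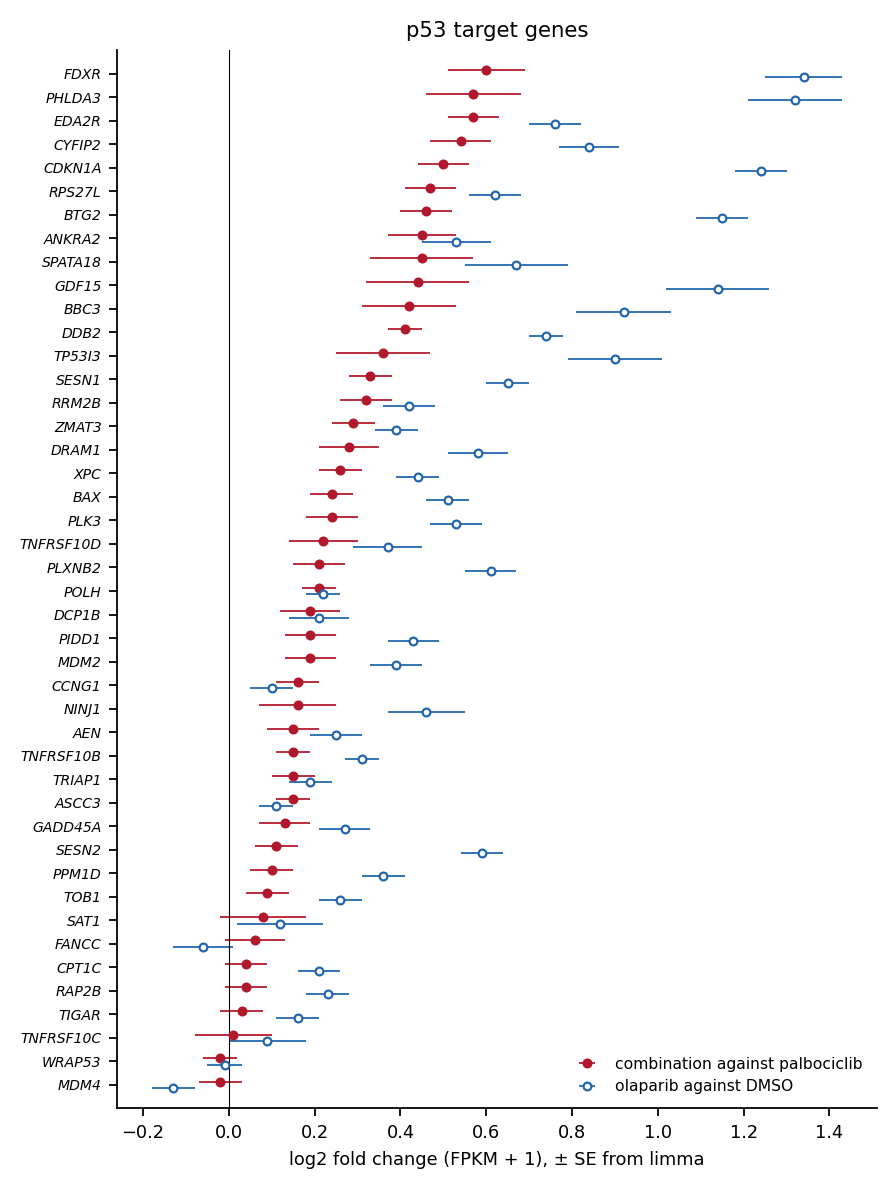
Log2 fold change of FPKM + 1 with its SE for each of the 44 tested p53 targets, filled red for combination against palbociclib and open blue for olaparib against DMSO. In 40 of 44 genes the red point lies nearer to 0 than the blue one.

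The p53 targets were also set beside the effect of olaparib alone. The list median was 0.213 with palbociclib and 0.423 without it, and 40 of 44 members had the smaller change with palbociclib, beside 8106 of all 12443 genes (65.1%). These contrasts share no library. The difference between the olaparib effects, tested gene by gene, was negative at an unadjusted p under 0.05 in 22 of 44 targets and positive in none, beside 4.80% negative and 5.77% positive over all genes. By limma no target passed adjustment in this test, and by voom 8 did, out of 50 genes in all (0.402%). For CDKN1A olaparib gave 0.50 ± 0.06 on palbociclib and 1.24 alone, a difference of -0.74 ± 0.09 (adjusted p = 0.159 by limma and 0.0001 by voom). For BTG2 the difference was -0.69 (adjusted p = 0.184 by limma and 0.000369 by voom). DDIT4, a stress-induced inhibitor of mTORC1 kept in the ATF4 list, had 18.4 and 18.9 FPKM with the combination, 18.4 and 18.5 FPKM with palbociclib, 21.4 and 22.4 FPKM with olaparib and 14.5 and 15.2 FPKM with DMSO. Olaparib thus gave 0.01 ± 0.04 on palbociclib and 0.53 alone, a difference of -0.52 ± 0.06 (adjusted p = 0.144 by limma and 0.00348 by voom). Palbociclib against DMSO, which shares the palbociclib libraries with the main comparison, gave 0.51 for CDKN1A, 0.84 for BTG2, 0.30 for DDIT4 and 1.36 for SESN2. For EDA2R olaparib gave 0.57 on palbociclib and 0.76 alone, and the difference of -0.19 had an unadjusted p of 0.0755. For ANKRA2, an ankyrin repeat gene, the effects were 0.45 and 0.53, and the difference of -0.08 had an unadjusted p of 0.524.

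Genes of ribosome production in the nucleolus stood lower in the combination. All 48 listed genes were tested, and in 44 both combination libraries lay below both palbociclib libraries, beside 29.1% of all genes. None showed the opposite. The median was -0.153, and 36 had an unadjusted p under 0.05 as lower genes (11.8% of all genes with the deposited scaling). None passed the adjusted limma threshold, and voom called 10 lower (1.58% of all genes). The count of 36 became 16 without the first palbociclib library and 21 with every library's FPKM rescaled to the same sum (TPM), and the median stayed between -0.17 and -0.1. Under that rescaling 35 of 48 were lower without overlap, and all genes split into 3262 higher and 2450 lower, in place of 2254 and 3625 with the deposited scaling, so the balance of higher and lower genes depends on the scaling.

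Among large-subunit factors, NIP7, which acts in pre-rRNA processing, had 24.6 and 25.2 FPKM in the combination libraries, 31.6 and 29 FPKM in the palbociclib libraries, 30.6 and 31.4 FPKM in the olaparib libraries and 38.8 and 39.5 FPKM in the DMSO libraries. The combination lay below every other library, palbociclib and olaparib overlapped, and DMSO lay highest. The difference from palbociclib was -0.27 ± 0.05 (adjusted p = 0.128 by limma and 0.00989 by voom). MRTO4, a mRNA turnover and large-subunit assembly factor, had 26.5 and 28.0 FPKM with the combination against 33.9 and 32.1 FPKM with palbociclib (-0.27 ± 0.05, adjusted p = 0.128 by limma). NOLC1, a phosphoprotein of the nucleolus, differed by -0.20 ± 0.04 from palbociclib levels of 106.3 and 100.9 FPKM. Of the box C/D core proteins of small nucleolar ribonucleoproteins, NOP58 differed by -0.21 ± 0.04 and NOP56 by -0.16 ± 0.03. DKC1, the pseudouridine synthase dyskerin, had 36.0 and 35.3 FPKM with the combination against 41.1 and 39.4 FPKM with palbociclib (-0.17 ± 0.03). LYAR, a nucleolar cell growth regulator, differed by -0.25 ± 0.05. The abundant nucleolin gene NCL had 186.0 and 184.0 FPKM against 214.3 and 201.6 FPKM (-0.17 ± 0.04).

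Olaparib alone gave this list a median of -0.274, with 37 of 48 members past the adjusted limma threshold as lower (10.5% of all genes). In 42 of 48 the change was smaller on palbociclib, again beside 65.1% of all genes. The difference of the olaparib effects was positive at an unadjusted p under 0.05 in 17 of 48 (5.77% of all genes) and negative in none (4.8%). No member passed adjustment by limma or voom. For LYAR, olaparib gave -0.25 on palbociclib and -0.48 alone (difference 0.23 ± 0.07, unadjusted p = 0.0181), and for NIP7 -0.27 and -0.33 (difference 0.05 ± 0.07, unadjusted p = 0.441).

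MRTO4 and UTP18 are printed because they are the nucleolar genes with the lowest p whose RefSeq promoter (GRCh38.p14, same window) holds the E box CACGTG, the palindromic sequence bound by MYC with MAX and by related factors. Capitals mark each CACGTG. The windows are chr1:19251555-19251854 for MRTO4 and chr17:51260296-51260595 for UTP18, both on the plus strand.
MRTO4: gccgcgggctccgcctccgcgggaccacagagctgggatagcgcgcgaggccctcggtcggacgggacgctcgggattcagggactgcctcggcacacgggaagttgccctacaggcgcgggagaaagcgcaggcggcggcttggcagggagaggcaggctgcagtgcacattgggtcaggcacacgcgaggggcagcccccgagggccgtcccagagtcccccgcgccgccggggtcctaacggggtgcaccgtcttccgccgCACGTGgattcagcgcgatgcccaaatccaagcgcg
UTP18: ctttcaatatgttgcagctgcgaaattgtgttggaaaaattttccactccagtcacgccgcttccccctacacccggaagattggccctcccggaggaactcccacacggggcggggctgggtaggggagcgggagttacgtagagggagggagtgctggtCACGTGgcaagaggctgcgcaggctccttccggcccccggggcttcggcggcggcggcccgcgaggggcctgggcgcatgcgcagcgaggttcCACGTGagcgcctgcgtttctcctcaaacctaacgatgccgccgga
The E box begins 14 bases after the start site in MRTO4, and in UTP18 there is 1 at 89 bases before it and another 4 bases after it. CACGTG was present in 14 of 37 nucleolar promoters (37.8%) and in 945 of 8815 promoters of tested genes (10.7%). The MYC mRNA had 110.6 and 119.6 FPKM in the combination libraries and 125.4 and 123.0 FPKM in the palbociclib libraries (-0.11 ± 0.05, 95% interval -0.24 to 0.02, adjusted p = 0.363, limma).

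Other lists of growth and protein supply lay on the same side, and their counts stand beside 29.1% of all genes lower without overlap and 18.1% higher. In the ATF4 list, genes of amino acid uptake and synthesis, 16 of 20 tested genes were lower in both combination libraries and none higher, with a median of -0.178, the lowest of the 28 lists with at least 7 tested genes. SLC7A5, the large neutral amino acid transporter, had 55.3 and 57.7 FPKM with the combination against 69.1 and 68.5 FPKM with palbociclib (-0.28 ± 0.05, adjusted p = 0.13 by limma and 0.00489 by voom). TRIB3, a pseudokinase induced by amino acid stress, had 2.02 and 2.17 FPKM against 3.08 and 2.99 FPKM (-0.38 ± 0.09). The cytosolic aminoacyl-tRNA synthetases, which charge tRNAs, were lower without overlap in 17 of 20, with none higher. YARS1 stood at 17.9 and 18.4 FPKM against 22.3 and 21.5 FPKM (-0.26 ± 0.04, adjusted p = 0.101 by limma and 0.00456 by voom). Heat shock genes were lower in 15 of 19 and proteasome subunits in 21 of 29, with none higher in either list, and under TPM scaling in 10 of 19 and 13 of 29. Quantile normalisation left 5 of 19 and 12 of 29 lower. Of all 12443 genes 3262 were higher and 2450 lower under TPM scaling, and 2712 and 2853 under quantile normalisation. The heat shock and proteasome lists had smaller medians (-0.109 and -0.1) than with olaparib alone (-0.246 and -0.176). HSPA8, the constitutive HSP70 chaperone, had 366.1 and 354.9 FPKM against 429.9 and 396.9 FPKM (-0.20 ± 0.05). Glycolytic and hypoxia genes were lower in 17 of 23, led by LDHA, lactate dehydrogenase A, at 115.6 and 115.6 FPKM against 138.8 and 131.7 FPKM (-0.22 ± 0.04, adjusted p = 0.128 by limma and 0.00562 by voom). ODC1, the rate-limiting enzyme of polyamine synthesis, had 59.4 and 59.8 FPKM against 73.4 and 70.3 FPKM (-0.27 ± 0.04). The cytosolic ribosomal protein genes had a median of 0.005, which ran from -0.05 to 0.05 over the settings tried and so changed sign. Of 70 genes 8 were higher and 3 lower without overlap, against 27 and 0 under TPM scaling and 28 and 1 under quantile normalisation. Without the first combination library 52 were higher and 4 lower, and without the second 9 and 43, so no direction can be given for them.

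DNA replication genes had a median of -0.632 for palbociclib against DMSO and mostly lay lower again with the combination. Of 48 tested genes 38 were lower in both combination libraries (29.1% of all genes) and 1 was higher (18.1%). The median was -0.125 and 28 had an unadjusted p under 0.05 as lower (11.8% of all genes). By limma none passed after adjustment. Voom with size factors called 11 lower (1.58% of all genes). Voom with library totals called 4 lower, beside 96 of all 12443 genes. Without the first palbociclib library 18 had an unadjusted p under 0.05 as lower. All 17 origin licensing and helicase genes had a negative difference, and in 16 the libraries did not overlap. MCM6, a subunit of the replicative helicase, had 47.1 and 46.5 FPKM in the combination libraries, 53.5 and 52.2 FPKM in the palbociclib libraries, 68.4 and 68.6 FPKM in the olaparib libraries and 77.2 and 77.9 FPKM in the DMSO libraries. These 4 groups did not overlap, and the combination was lowest (-0.17 ± 0.03 against palbociclib, adjusted p = 0.128 by limma and 0.0369 by voom). CDC6, the licensing factor, differed by -0.18 ± 0.03. RFC3, a clamp loader subunit, had 24.7 and 23.7 FPKM against 29.8 and 28.1 FPKM (-0.25 ± 0.04). RRM2, the S-phase subunit of ribonucleotide reductase, had 37.2 and 35.6 FPKM against 44.7 and 42.3 FPKM (-0.25 ± 0.04, adjusted p = 0.127 by limma and 0.006 by voom).

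The replication list had similar medians in both olaparib effects, -0.125 on palbociclib and -0.137 alone. In 28 of 48 the change was smaller on palbociclib, beside 65.1% of all genes. The difference was negative at an unadjusted p under 0.05 in 6 of 48 (4.8% of all genes) and positive in none (5.77%). UHRF1, which guides maintenance DNA methylation at replication forks, was among the 6. It had 27.1 and 28.6 FPKM with the combination, 34.1 and 33.0 FPKM with palbociclib, 60.5 and 62.6 FPKM with olaparib and 62.0 and 63.5 FPKM with DMSO, so that olaparib gave -0.26 ± 0.04 on palbociclib and -0.03 alone (difference -0.23 ± 0.06, unadjusted p = 0.00467, adjusted p = 0.0993 by voom). CHAF1A, a subunit of the histone chaperone that loads new nucleosomes, gave -0.20 ± 0.04 on palbociclib and -0.02 alone (difference -0.17 ± 0.06, unadjusted p = 0.0278). Neither difference passed adjustment.

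**Figure D3:**
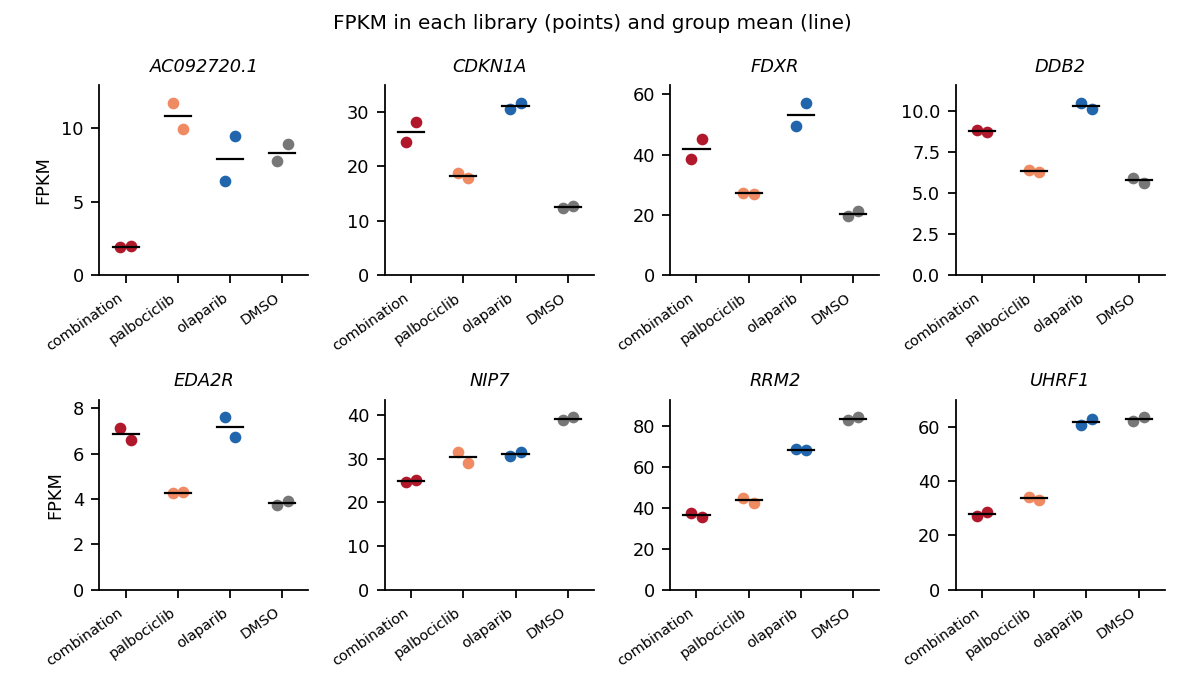
FPKM of 8 genes in each library (points, 2 per group) with the group mean as a line, groups from left to right combination, palbociclib, olaparib and DMSO. AC092720.1 is low in the combination alone, CDKN1A, FDXR and DDB2 are highest with olaparib alone, and NIP7, RRM2 and UHRF1 are lowest with the combination.

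More genes of G2 and mitosis lay lower than higher. Of 51 tested genes 28 were lower in both combination libraries (29.1% of all genes) and 7 were higher (18.1%), with a median of -0.074. Under TPM scaling 21 were lower and 9 higher without overlap, beside 2450 and 3262 of all 12443 genes. At an unadjusted p under 0.05 there were 16 lower (11.8% of all genes) and 1 higher (4.85%), against 9 and 4 under TPM scaling and 6 and 1 under quantile normalisation. No member passed the adjusted limma threshold, and voom called 2 lower. Without the first palbociclib library 5 had an unadjusted p under 0.05 as lower, and without the first combination library 8 did. MYBL2, the B-Myb factor that switches on G2 genes, had 28.8 and 31.4 FPKM with the combination against 37.1 and 37.1 FPKM with palbociclib (-0.29 ± 0.05, adjusted p = 0.128 by limma and 0.00858 by voom). LMNB1, lamin B1, had 96.9 and 100.6 FPKM against 117.8 and 112.8 FPKM (-0.22 ± 0.04, adjusted p = 0.128 by limma and 0.012 by voom). Cyclin A2 (CCNA2) differed by -0.18 ± 0.04 and cyclin B1 (CCNB1) by -0.16 ± 0.04, and KIF23, a kinesin of cytokinesis, by -0.12 ± 0.04. KIF20A, a further kinesin of cytokinesis, lay the other way, with 10.3 and 10.2 FPKM against 8.89 and 8.63 FPKM (0.21 ± 0.04, adjusted p = 0.128 by limma). The median of this list for palbociclib against DMSO was -0.773.

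No drug target passed the adjusted limma threshold, and CDK4 had the largest difference of those tested. PARP1 had 71.6 and 72.8 FPKM with the combination and 75.2 and 74.4 FPKM with palbociclib (-0.05 ± 0.03, 95% interval -0.12 to 0.02). PARP2 overlapped between the groups (-0.04 ± 0.06, interval -0.19 to 0.12). CDK4 had 44.8 and 49.3 FPKM against 51.7 and 52.0 FPKM (-0.14 ± 0.06, adjusted p = 0.297, limma), and CDK6, at 0.928 and 0.928 FPKM against 0.974 and 1.03 FPKM, was under the expression filter. RB1, the retinoblastoma gene, overlapped at a difference of -0.00 ± 0.06 with an interval of -0.15 to 0.15. Cyclin D1 (CCND1) differed by -0.10 ± 0.04 and cyclin E1 (CCNE1) by -0.15 ± 0.05. E2F1, the activator that RB1 restrains, had 20.8 and 21.4 FPKM with the combination against 24.2 and 24.5 FPKM with palbociclib (-0.20 ± 0.05, adjusted p = 0.161, limma), and olaparib alone gave 0.01 (difference -0.21 ± 0.07, unadjusted p = 0.0171). Apart from CDKN1A, no gene of the 24 tested in the G1 list was called by voom. In this list 11 genes were lower without overlap (29.1% of all genes) and 4 higher (18.1%), with a median of -0.084. Under TPM scaling 10 were lower and 4 higher, beside 2450 and 3262 of all 12443 genes. All 4 tested D-type cyclins and kinases had a negative difference, and 3 of them were lower without overlap.

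DNA repair lists had small medians, and their counts depended on the scaling. Of 31 tested homologous recombination genes 15 were lower without overlap (29.1% of all genes) and 3 higher (18.1%), with a median of -0.059. Under TPM scaling 9 were lower and 6 higher, beside 2450 lower and 3262 higher of all 12443 genes. EXO1, the resection nuclease, differed by -0.20 ± 0.04 and RBBP8, which encodes the resection factor CtIP, by -0.19 ± 0.04. BRCA1 differed by -0.07 ± 0.05 (interval -0.20 to 0.05) and BRCA2 by -0.08 ± 0.07 (interval -0.24 to 0.07). In the PARP list 5 of 18 were lower and 4 higher, in the Fanconi list 5 of 18 and 1, in base excision repair 8 of 20 and 1, in end joining 8 of 16 and 4, and among checkpoint genes 8 of 15 and 2. Under TPM scaling the lower and higher counts were 4 and 4 for the PARP list, 3 and 3 for the Fanconi list, 5 and 4 for base excision repair, 4 and 4 for end joining and 5 and 3 for checkpoint genes. TNKS, the telomere-associated PARP tankyrase, lay higher in both combination libraries by 0.15 ± 0.05 (adjusted p = 0.209 by limma, 0.0786 by voom with size factors and 0.0429 by voom with library totals). XRCC6, the Ku70 subunit, differed by -0.12 ± 0.03. CLSPN, the claspin gene of the ATR pathway, had 6.84 and 5.74 FPKM against 7.45 and 7.97 FPKM (-0.26 ± 0.08, adjusted p = 0.196 by limma and 0.0369 by voom) and was the 1 member of these repair and checkpoint lists called by voom with size factors. Voom with library totals called TNKS and not CLSPN.

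Genes that passed the test with olaparib alone mostly had the same sign on palbociclib. Over all 12443 genes 42% had a positive and 58% a negative difference on palbociclib, and 18.1% and 29.1% were higher and lower without overlap. Under TPM scaling 3262 genes were higher and 2450 lower without overlap. The shares that follow were taken with the deposited scaling only, so how far they depend on it was not tested. Of the 514 genes that olaparib raised alone (4.13% of those tested, limma), 445 (86.6%) had a positive difference on palbociclib, and in 314 (61.1%) the libraries did not overlap as higher. Of the 1307 genes that olaparib lowered alone (10.5%), 1246 (95.3%) had a negative difference and in 1037 (79.3%) the libraries did not overlap as lower. The medians were 0.10 on palbociclib and 0.32 alone for the first set, and -0.11 and -0.22 for the second. Among the 10622 genes not called with olaparib alone 44.4% were positive and 55.6% negative. Since these sets were chosen on the values with olaparib alone, their medians there are a description. Across all 12443 genes, which share libraries and are not independent replicates, the Pearson correlation of the olaparib effects was 0.252 and Spearman's 0.438. The difference between the effects passed adjustment by limma in 1 gene (0.00804%), ENSG00000274519, at -1.90 ± 0.13 (adjusted p = 0.0221). By voom 50 genes passed (0.402%), all with a lower value on palbociclib and none higher.

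**Figure D4:**
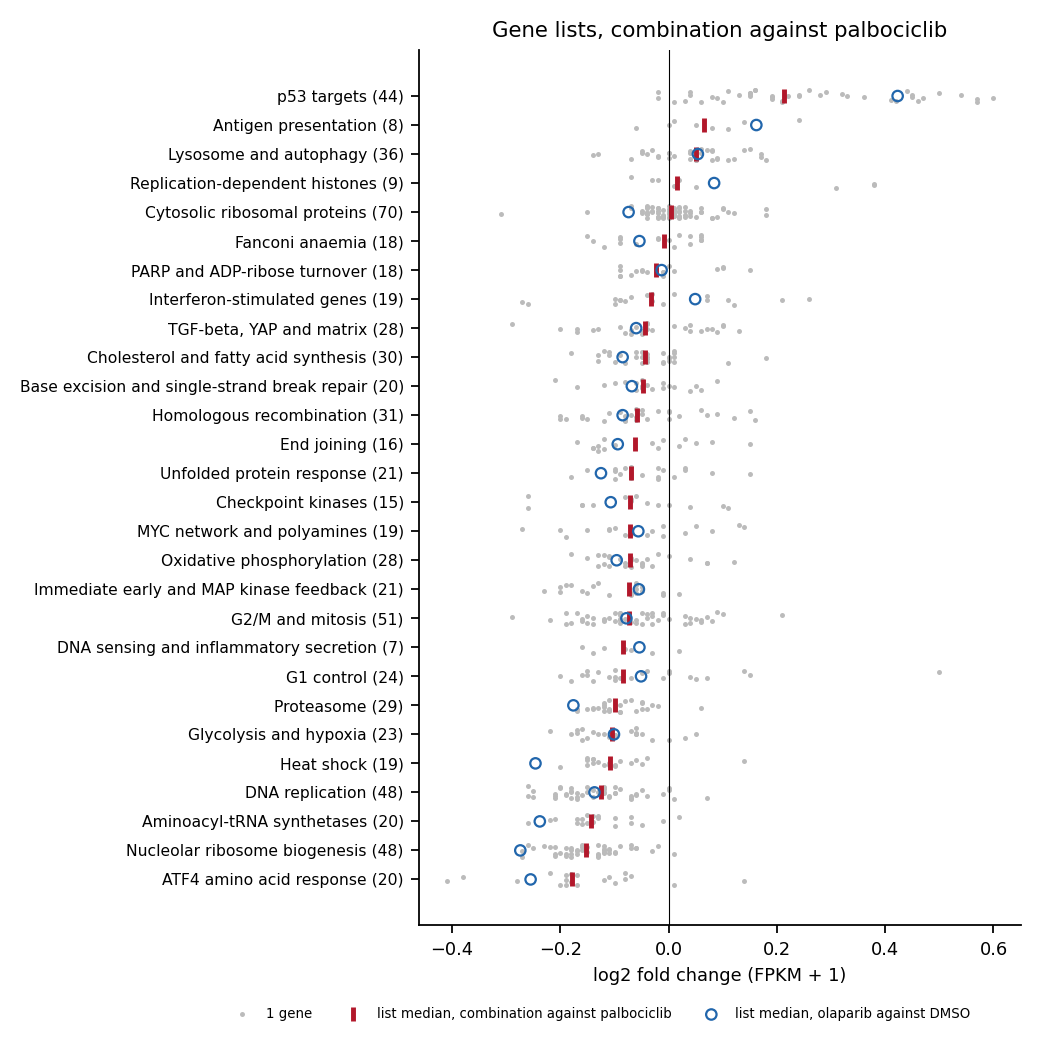
Log2 fold change of FPKM + 1 for combination against palbociclib, 1 grey point per tested gene, for each gene list with at least 7 tested members (number in brackets), with the list median as a red bar and its median for olaparib against DMSO as an open blue circle. The p53 list lies farthest above 0 and the ATF4 and nucleolar lists farthest below, and in these 3 lists the blue circles lie farther out.

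A few protein-coding genes outside the lists stood out and are named after their values were seen. CDK2AP1, which encodes a protein that binds CDK2, had 12.6 and 11.9 FPKM with the combination, 18.3 and 18.2 FPKM with palbociclib, 19.9 and 21.8 FPKM with olaparib and 22.4 and 25 FPKM with DMSO. It differed from palbociclib by -0.54 ± 0.07 (adjusted p = 0.078 by limma and 6.1e-05 by voom). NRARP, a Notch target that damps Notch signalling, had 14.8 and 16.8 FPKM against 22.1 and 22.5 FPKM (-0.48 ± 0.07, adjusted p = 0.11 by limma and 0.000969 by voom). CNIH3, an AMPA receptor auxiliary subunit, had 0.865 and 0.614 FPKM with the combination, 2.28 and 1.97 FPKM with palbociclib, 1.31 and 1.60 FPKM with olaparib and 1.11 and 1.61 FPKM with DMSO (-0.85 ± 0.14, adjusted p = 0.127 by limma and 6.59e-05 by voom). In all 3 both combination libraries lay below every other library. PBXIP1, which encodes a PBX-interacting protein, had 14.2 and 14.9 FPKM with the combination, 10.4 and 10.9 FPKM with palbociclib, 5.79 and 5.92 FPKM with olaparib and 3.58 and 3.47 FPKM with DMSO. No 2 groups overlapped, and the combination was highest (0.42 ± 0.04 against palbociclib, adjusted p = 0.0572 by limma and 0.000185 by voom).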

How the data were processed

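Polyadenylated RNA was extracted with TRIzol and made into libraries with a NEBNext Ultra kit, per the labels' protocols. CASAVA 1.8, STAR 2.5.1b and HTSeq 0.6.0 are named, with GRCh38, per the submitters' processing notes; no source used here says whether strand was used in counting. The authors deposited 1 table of FPKM values for 31721 genes in 8 libraries, with columns matched to samples by name.

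From these values log2(FPKM + 1) was computed for the 12443 genes with a mean of at least 1 FPKM (19278 were left out) and fitted with limma 3.58.1 in R 4.3.3, with 1 mean per group over all 8 libraries, 4 residual and 3.006 prior degrees of freedom, a variance trend and two-sided Benjamini-Hochberg adjusted p-values. The fit was tested on simulated data. The difference of olaparib effects is (combination - palbociclib) - (olaparib - DMSO) in the same fit. FPKM values were whole multiples of 1 read, within 0.01 reads, for 28635 genes (90.27%) with GENCODE 29 exon lengths; lengths of the other 3086 were searched for, which is no independent check. These recovered reads, 20566089 to 34056976 per library, were fitted with voom as an alternative, with library totals or with size factors (the size factors were added after the data were seen).

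The members and gene lists were chosen with earlier results of these data known. Genes named are the 3 list members with the lowest p (6 in the p53, G2/M, replication and nucleolar lists), fixed pathway genes, those past the threshold, and those with the lowest p for the difference; others, used to show a list's range or roles, were chosen after their values were seen. Promoters are from RefSeq; a single p53 decamer was searched, not a pair. Results for some genes of the fixed set are not reported here.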

Additional observations from a re-analysis of the deposited data

Results flagged for a closer look

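ENSG00000274519 passed the test of the difference between the effect of olaparib with palbociclib and the effect without it. It had 4.49 and 4.41 FPKM with the combination and 12.7 and 11.8 FPKM with palbociclib. The values were 7.01 and 8.62 FPKM with olaparib and 5.04 and 4.44 FPKM with DMSO. The difference was -1.90 (adjusted p = 0.0221 by limma and 0.13 by voom). The combination libraries had a minimum of 6 and 7 recovered reads, since the length of this gene was searched for. MAP1LC3B, the neighbour of AC092720.1, lay higher in both combination libraries than in both palbociclib libraries and lower in both olaparib libraries than in both DMSO libraries. It had 14.1 and 14.7 FPKM with the combination, 13.9 and 13.6 FPKM with palbociclib, 10.7 and 11.1 FPKM with olaparib and 11.6 and 11.2 FPKM with DMSO, and the difference of 0.13 ± 0.06 did not pass the test (unadjusted p = 0.0635).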

How the results depend on the processing

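The counts of called genes depended on the processing. In place of 1 higher gene, 2 lower genes and 1 gene for the difference of olaparib effects, no filter on low values gave 17 higher, 6 lower and 33 for the difference, and a mean of at least 5 FPKM gave 11, 8 and 6. The genes called higher with that filter included the p53 targets FDXR, EDA2R, CDKN1A, RPS27L, BTG2, DDB2 and SESN1. Quantile normalisation gave 13 higher and 4 lower, and TPM 10 higher. Voom on the recovered reads gave 151 higher, 96 lower and 197 for the difference with library totals, and 92, 197 and 50 with size factors, with 188 genes shared between the calls of these fits for combination against palbociclib. Limma and voom with size factors shared 1 gene, AC092720.1. Leaving out 1 library gave 0 to 1 higher, 0 to 2 lower and 0 to 2 for the difference. With the replicate number as a replicate block the counts were 1 higher, 2 lower and 0 for the difference. Replicate deviations correlated between groups by -0.047 to 0.034 over all tested genes. Whether equal numbers mark a shared culture or batch cannot be told from these values. With 4 residual degrees of freedom a median 95% interval of 0.15 to either side limits what can be detected.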

Other observations

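Interferon-stimulated genes lay on both sides, with 3 of 19 tested genes higher and 8 lower without overlap, beside 18.1% and 29.1% of all genes. Under TPM scaling the counts were 5 higher and 3 lower, beside 3262 and 2450 of all 12443 genes. Under quantile normalisation they were 3 and 4, beside 2712 and 2853, so the balance depended on the scaling. STAT2, a subunit of the interferon-activated factor ISGF3, had 8.46 and 7.84 FPKM with the combination, 6.39 and 6.89 FPKM with palbociclib, 4.58 and 4.62 FPKM with olaparib and 3.89 and 3.68 FPKM with DMSO (0.26 ± 0.05, adjusted p = 0.135 by limma and 0.0216 by voom). IFIT1, an antiviral RNA-binding protein gene, had 16.4 and 15.8 FPKM with the combination against 19.3 and 19.9 FPKM with palbociclib (-0.27 ± 0.04, adjusted p = 0.127 by limma and 0.00699 by voom). Lysosome and autophagy genes were higher without overlap in 18 of 36 (18.1% of all genes) and lower in 5 (29.1%), and NEU1, a lysosomal sialidase, differed by 0.17 ± 0.05. Of 9 tested replication-dependent histone genes 3 were higher without overlap (18.1% of all genes), with H2AC11 at 2.03 and 2.00 FPKM against 1.40 and 1.25 FPKM (0.38 ± 0.09). Their transcripts mostly lack a poly(A) tail, and their levels in poly(A)-selected libraries carry that limit.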
